A study of Mus musculus with 4 samples.

Results

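Transcript levels of 6 genes that handle thyroid hormone signals, Crym, Thra, Thrb, Dio2, Rxrg and Rxra, were followed in mouse eyes after light exposure. All 6 were found among the 22558 rows of the deposited table. The set was chosen by the measured FPKM of Crym, which was strongly higher at 24 h, so that value is the reason for the choice and is described here without a test. The 6 include no membrane transporter; those are given further on from a list. All eyes came from mice with the genotype Abca4-/-Rdh8-/-, the control included. By that label the mice lack Abca4, a retinaldehyde flippase of photoreceptor discs, and Rdh8, which reduces all-trans-retinal in rod outer segments. Such mice are known to clear all-trans-retinal slowly after light. Abca4 was nevertheless at 56.3 FPKM without light, 40.6 FPKM at 3 h, 34.3 FPKM at 24 h and 37.4 FPKM at 7 days, and Rdh8 at 10.5, 14.2, 11.9 and 11.02 FPKM in that order. These are values of whole genes, with no wild-type level beside them, so they do not check the label. At an age given as 6 weeks, 4 conditions were sampled: no light, 3 h after light exposure, 24 h after it and 7 days after it. The labels describe each condition as eyes of 3 mice, but the table has 1 value per gene and condition. No difference below therefore has a replicate check, and no test was run. The genotype is the same throughout and wild-type eyes were not analysed here, so whether the differences after light depend on the genotype cannot be told.

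Thyroid hormone reaches the eye mostly as thyroxine, which membrane transporters carry into cells. The type 2 deiodinase encoded by Dio2 converts it to the active triiodothyronine, and the type 3 enzyme encoded by Dio3 inactivates both. Crym encodes mu-crystallin, a cytosolic protein that binds triiodothyronine in the presence of NADPH and is also a ketimine reductase; it is a major lens protein in some marsupials. Thra and Thrb encode the nuclear receptors for the hormone, which bind DNA chiefly as partners of the retinoid X receptors encoded by Rxra, Rxrb and Rxrg. In the developing mouse retina Thrb and Rxrg act in cones, where Thrb is needed for the middle-wavelength opsin and both restrain the short-wavelength opsin.

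The samples are labelled whole eye, but their extraction protocol mentions retinas. Lens markers summed to 95278 FPKM without light, 91644 FPKM at 3 h, 102305 FPKM at 24 h and 101892 FPKM at 7 days, so lens RNA was present in all samples. FPKM are mapped fragments scaled to transcript length and library size. The 4 Y-linked genes examined lay between 1.38 and 6.80 FPKM at 7 days and at no more than 0.0137 FPKM in the other samples, so comparisons with the 7-day sample also compare sexes. Columns summed to 660426 FPKM or more after light and to 626973 FPKM without light. Judged by olfactory receptor rows with a value above 0 in only 1 of the samples, 1 fragment was worth about 0.0448 FPKM without light, 0.0467 FPKM at 3 h, 0.0349 FPKM at 24 h and 0.0255 FPKM at 7 days. On that scale the counting error at 5 FPKM was about 9.46%, 9.66%, 8.36% and 7.14% in the same order. The intervals below rest on this approximate depth, hold for a transcript as long as those receptor transcripts, and cover counting error only, not the spread between animals. In the GENCODE annotation of GRCm38 the longest coding transcripts of olfactory receptor genes have a median of 2929 bases. Those of Crym, Thra and Rxrg are shorter (1383, 2452 and 2110), and those of Dio2, Thrb and Rxra longer (5815, 6200 and 4905). By that measure the intervals are too narrow for the shorter and too wide for the longer. The annotation behind the FPKM values is not known, and with other receptor lengths there this could differ. The intervals were computed for ratios of plain FPKM. For differences of log2(FPKM + 1) they would be narrower, chiefly for low genes.

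Promoter sequence was at hand for 4 of the 6 genes, Dio2, Thrb, Rxrg and Rxra, at 7 transcription starts. The 250 bases before the starts of Dio2 and Thrb are shown because these were the genes of the 6 with the largest positive differences at 3 h. They are from RefSeq on GRCm38.p6, whereas the expression values were made on mm9. Dio2 lies on the minus strand at chr12:90739039-90739288, and the Thrb starts lie on the plus strand at chr14:17660710-17660959 and, inside the gene, at chr14:17981394-17981643. Each is written 5′ to 3′ with its last base next to the start. Capitals mark matches to TGACGTCA (the cAMP response element), AGGTCA (the hexamer read by thyroid hormone and retinoid X receptors), TATAAA (the TATA motif) or CACGTG (an E-box).
Dio2: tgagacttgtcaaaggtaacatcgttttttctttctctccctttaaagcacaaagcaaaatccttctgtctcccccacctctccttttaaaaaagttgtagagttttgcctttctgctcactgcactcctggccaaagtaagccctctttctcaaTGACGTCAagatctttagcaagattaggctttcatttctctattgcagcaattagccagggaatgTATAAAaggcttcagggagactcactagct
Thrb, upstream start: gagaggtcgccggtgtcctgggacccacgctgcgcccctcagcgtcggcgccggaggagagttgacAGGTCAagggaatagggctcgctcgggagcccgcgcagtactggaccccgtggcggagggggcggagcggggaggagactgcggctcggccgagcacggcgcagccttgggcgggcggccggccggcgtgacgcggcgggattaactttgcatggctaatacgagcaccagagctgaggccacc
Thrb, downstream start: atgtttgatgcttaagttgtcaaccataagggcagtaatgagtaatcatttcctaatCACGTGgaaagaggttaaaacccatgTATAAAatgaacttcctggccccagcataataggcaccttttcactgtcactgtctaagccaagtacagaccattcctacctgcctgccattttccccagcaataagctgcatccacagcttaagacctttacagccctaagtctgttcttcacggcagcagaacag
The Dio2 sequence holds TGACGTCA beginning 95 bases before the start and TATAAA beginning 30 bases before it. On either strand, TGACGTCA occurred in 1.55% and TATAAA in 12.4% of the 32851 promoter windows of this length. AGGTCA, found in 14.0% of windows, was present once before the upstream Thrb start, once in 1 of the Rxrg windows and at 2 positions in 1 of the Rxra windows. CACGTG, found in 6.02% of windows, was present once before the downstream Thrb start, where TATAAA also occurred. The direct repeat of AGGTCA with a spacing of 4 bases, and the STAT motif TTCNNNGAA, searched on both strands, were in none of the 7 windows of the 4 genes, against 0.0152% and 7.02% of all windows. A match is only a match of letters in this window. The 2 Thrb starts give different receptor isoforms, which the gene-level values below do not separate.

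Crym was by far the most variable of the 6 genes. It measured 28.8 FPKM without light, 20.9 FPKM at 3 h, 184 FPKM at 24 h and 54.0 FPKM at 7 days. The 24 h sample stood highest, the 7-day sample second, and the 3 h sample lowest, with a ratio of 8.82 between highest and lowest. At 24 h Crym was 6.40-fold higher than without light, a difference of 2.64 on the log2(FPKM + 1) scale with a counting interval of ±0.12 on the log2 scale. Among 14194 genes with a mean of at least 1 FPKM over the 4 samples, 106 (0.747%) were higher by at least 1 log2 unit at 24 h, and Crym ranked 28. Among 10168 protein-coding genes with a mean of at least 5 FPKM it ranked 4.

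**Figure D1:**
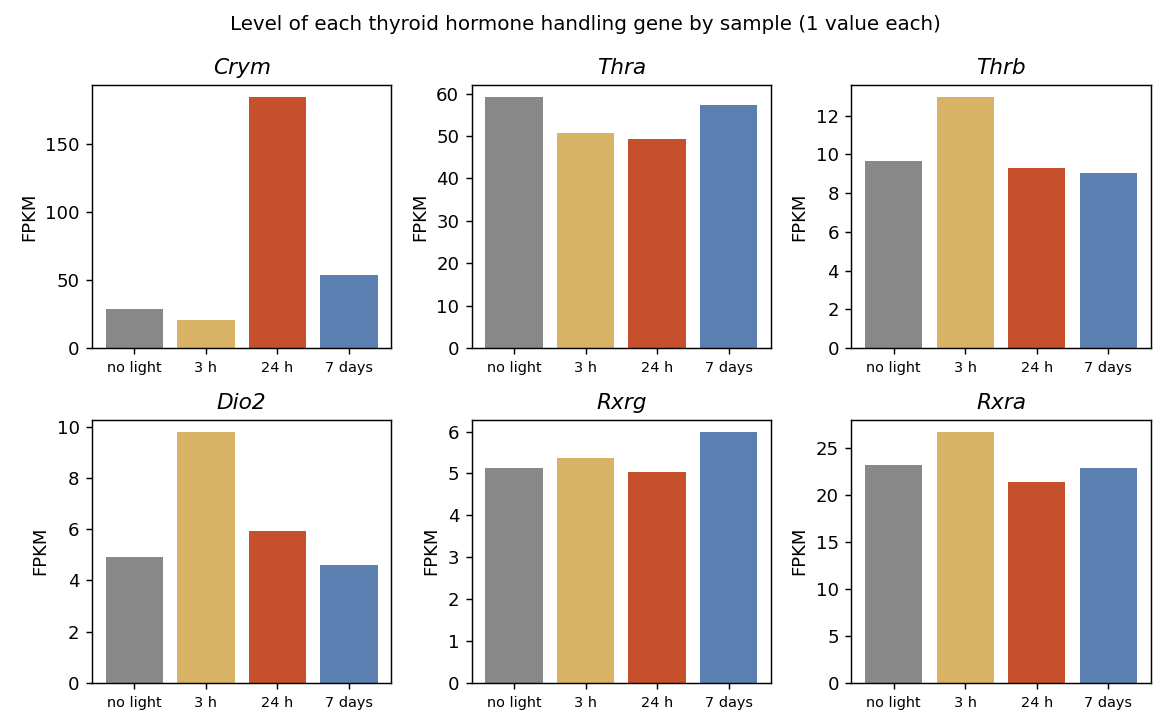
Level in FPKM (vertical axes, each from 0) of the 6 genes without light and 3 h, 24 h and 7 days after light, 1 bar per sample and no error bars because there is 1 value each. Crym reaches 184 FPKM at 24 h and Dio2 reaches 9.78 FPKM at 3 h, while Thra, Rxrg and Rxra stay within a ratio of 1.25 between their highest and lowest samples.

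At 3 h Crym was lower than without light, at a ratio of 0.725 and a log2 difference of -0.44 ± 0.17 (counting interval). This placed it 298th from the lowest of the 14194 genes, short of the threshold of 1 log2 unit. At 7 days it was 1.87-fold higher than without light (0.88 ± 0.13), 68th from the highest and also short of the threshold. Between successive times, the 24 h sample was 8.82-fold higher than the 3 h sample (log2 difference of 3.08). At 7 days Crym was at 0.293 of the 24 h level (-1.75), past the threshold downwards. Of all genes kept, 0.514% were past it upwards from 3 h to 24 h and 0.514% downwards from 24 h to 7 days.

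Dio2, the activating deiodinase, was highest at 3 h. Its level was 4.91 FPKM without light, 9.78 FPKM at 3 h, 5.93 FPKM at 24 h and 4.61 FPKM at 7 days. The 3 h sample stood apart, and the other samples lay closer together. Among those, the 7-day level was 0.777 of the 24 h level, a log2 difference of -0.31 ± 0.30 (counting interval). The 3 h level was 1.99 times that without light, a log2(FPKM + 1) difference of 0.87, with a counting interval of ±0.33 computed on plain FPKM. This was short of the threshold and 101st from the highest of 14194 genes. Differences against the control were 0.23 ± 0.35 at 24 h and -0.08 ± 0.34 at 7 days, both smaller than the counting interval. From 3 h to 24 h the difference was -0.64, and the 24 h level was 0.606 of the 3 h level. Dio3, the inactivating enzyme, stood at 2.60 FPKM without light, 2.73 FPKM at 3 h, 2.26 FPKM at 24 h and 2.21 FPKM at 7 days. The ratio of Dio2 to Dio3 was therefore 1.89 without light, 3.58 at 3 h, 2.62 at 24 h and 2.09 at 7 days. Dio1, the deiodinase of liver and kidney, was at 0.273 FPKM or below in the samples.

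Of the 2 hormone receptors, Thrb was highest at 3 h and Thra was lower at 3 h and 24 h, and neither passed the threshold at any time. Thrb was at 9.64 FPKM without light, 12.9 FPKM at 3 h, 9.30 FPKM at 24 h and 9.02 FPKM at 7 days. Its 3 h value exceeded the control by a ratio of 1.34 (log2 difference of 0.39 ± 0.26), and the other 3 samples lay within their counting error of one another. Thra, the gene with the higher transcript level, was at 59.1 FPKM without light, 50.7 FPKM at 3 h, 49.3 FPKM at 24 h and 57.4 FPKM at 7 days. Like those of Thrb, these values are of the whole gene and do not separate isoforms. The samples at 3 h and 24 h were alike and lower than the other pair, with log2 differences from the control of -0.22 ± 0.12 and -0.26 ± 0.11. The ratio of Thra to Thrb was 6.13 without light, 3.92 at 3 h, 5.30 at 24 h and 6.37 at 7 days.

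Values of Thra need care, because its end overlaps Nr1d1 on the opposite strand in the GENCODE annotation of GRCm38. The library kit is not stated to keep strand, so fragments of the overlap cannot be assigned with certainty. Nr1d1, a repressor of the circadian clock, was at 35.5 FPKM without light, 32.6 FPKM at 3 h, 47.5 FPKM at 24 h and 48.1 FPKM at 7 days. Thra was lower and Nr1d1 higher at 24 h than without light, whereas both were slightly lower at 3 h. The part of Nr1d1 in the Thra values was not tested. Nr1d2, which lies next to Thrb without overlapping it, was at 33.9, 51.4, 51.5 and 46.7 FPKM in the same order of samples.

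The retinoid X receptor genes differed little from the control. Rxra was at 23.2 FPKM without light, 26.7 FPKM at 3 h, 21.4 FPKM at 24 h and 22.9 FPKM at 7 days. Its largest difference from the control was 0.20 ± 0.17 at 3 h. Rxrg, the cone-enriched member, was at 5.13 FPKM without light, 5.36 FPKM at 3 h, 5.04 FPKM at 24 h and 5.98 FPKM at 7 days, and none of its differences from the control exceeded the counting interval, the widest apart being 0.19 ± 0.32 at 7 days. Rxrb, which was not among the 6, was at 21.3, 22.6, 23.3 and 21.2 FPKM in that order. Rxrg made up 10.3% of the summed level of the 3 genes without light, 9.80% at 3 h, 10.1% at 24 h and 11.9% at 7 days. The sum of the 3 lay between 49.6 and 54.7 FPKM.

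**Figure D2:**
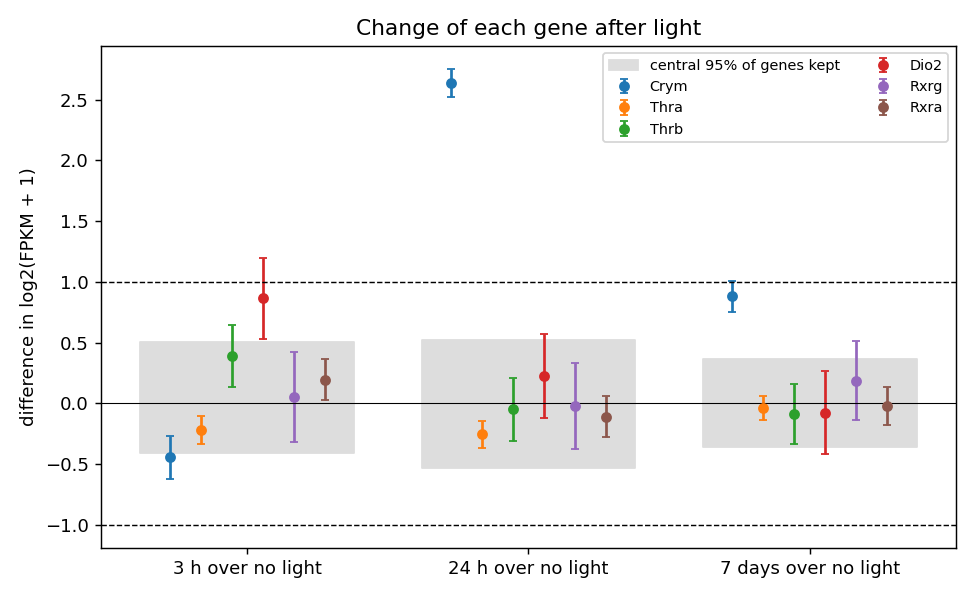
Difference in log2(FPKM + 1) from the control (vertical axis) for the 6 genes at 3 h, 24 h and 7 days. Points are single values, and bars are approximate 95% intervals for counting error only, computed on plain FPKM. Grey bands hold the central 95% of 14194 genes and dashed lines mark the threshold of 1. Crym at 24 h is the one point past it.

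Counted over the 6 genes, all of which passed the filter on low values, none was past the threshold at 3 h, 1 was higher at 24 h and none at 7 days. Among all genes kept, 0.789% were past it in either direction at 3 h, 1.11% at 24 h and 0.599% at 7 days. Since Crym was the reason for the choice, its place in this count carries no weight. The other 5 genes differed from the control by under 0.5 log2 units at 24 h and at 7 days. At 3 h, Dio2 was the exception to that limit. The median difference of the 6 was 0.12 at 3 h, -0.03 at 24 h and -0.03 at 7 days, beside 0.02, 0.01 and 0.00 for all genes kept. Without light the order of levels was Thra, Crym, Rxra, Thrb, Rxrg and Dio2, with Rxrg and Dio2 closer than their counting error of 9.34% and 9.54%. At 24 h Crym led, and its level was 3.14 times the sum of Thra and Thrb, against 0.419 times without light.

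The genes with the pattern most like that of Crym were sought by the distance between their 3 log2 differences from the control and those of Crym, among 9715 other named protein-coding genes with a mean of at least 5 FPKM. Gfap, a glial filament protein that reactive glia make in excess, was nearest at a distance of 0.43. It was at 18.3 FPKM without light, 15.5 FPKM at 3 h, 93.0 FPKM at 24 h and 36.8 FPKM at 7 days. Like Crym, it was lowest at 3 h and highest at 24 h, and the ratio of Crym to Gfap lay between 1.35 at 3 h and 1.98 at 24 h. Next came Glycam1, a secreted mucin-like glycoprotein, at 0.55, with 15.0 FPKM at 24 h against 2.17 FPKM without light. Serpina3n, a secreted serine protease inhibitor, followed at 0.72, with 197 FPKM at 24 h against 28.5 FPKM without light. The metalloproteinase inhibitor gene Timp1 stood at 1.16, Lrrc2 at 1.29, Sec22c at 1.36, Klhl29 at 1.38 and Osmr, the oncostatin M receptor, at 1.38. The distance is over 4 samples that share 1 control, so it describes these samples only. Of the 8, Glycam1, Timp1, Lrrc2, Sec22c and Klhl29 were under 5 FPKM in each sample except that at 24 h. These 5 passed the filter through their 24 h value, and the filter thus favours genes that peak there.

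**Figure D3:**
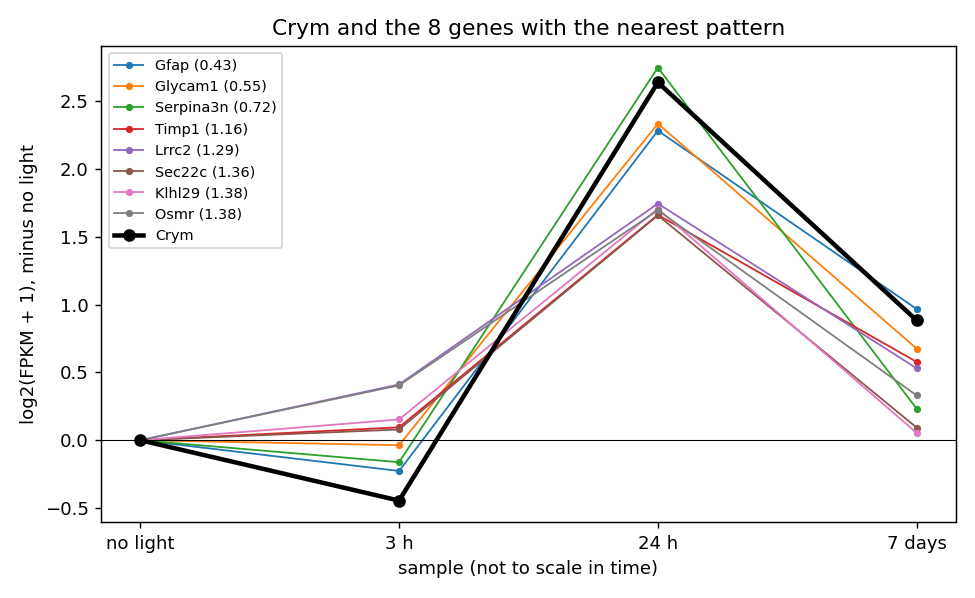
Level on the log2(FPKM + 1) scale minus that without light (vertical axis) for Crym in black and the 8 genes nearest to it, with distances in brackets, across the 4 samples. All 9 lines peak at 24 h. Crym, Gfap, Glycam1 and Serpina3n lie below 0 at 3 h, at -0.44, -0.23, -0.04 and -0.16. Counting intervals at 3 h are ±0.17 for Crym, ±0.21 for Gfap and ±0.17 for Serpina3n, so the Serpina3n value does not exceed its interval.

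Markers of cell types moved beside Crym in different ways. Of 10 reactive Müller glia markers, 8 were past the threshold upwards at 24 h and all 10 lay above 0. Of all genes kept, 0.747% were past it upwards and 0.359% downwards at 24 h. Gfap, Serpina3n and Osmr are in this list and also among the genes nearest to Crym, so the list is not independent of those genes. The list was also chosen with earlier results of these data known, so its count is a description and carries no weight as support. The summed level of the 10 markers was 99.9 FPKM without light, 127 FPKM at 3 h, 470 FPKM at 24 h and 146 FPKM at 7 days. The 9 markers of resting Müller glia summed to 2730 FPKM without light, 2753 FPKM at 3 h, 2302 FPKM at 24 h and 3313 FPKM at 7 days, with none past the threshold. Among them Glul, glutamine synthetase, stood at 395 FPKM at 24 h against 769 FPKM without light. The 12 rod markers summed to 14422, 12573, 9121 and 9744 FPKM in the order of the samples, with 2 past the threshold downwards at 24 h. The 12 skeletal muscle markers summed to 1886, 2030, 1237 and 1620 FPKM, and all 12 lay below 0 at 24 h. No marker of the lists above was listed at 0. Crym was highest in the sample with the least rod and muscle signal. That sample also had the lowest sums for resting Müller glia, cones, bipolar cells, ciliary epithelium, and amacrine, horizontal and ganglion cells. The margin was small for cones (526 FPKM against 528 FPKM without light) and bipolar cells (392 FPKM against 393 FPKM at 3 h). Lens and reactive Müller glia sums were highest there. Those of pigment epithelium, surface epithelium and erythroid cells were neither highest nor lowest. The part of cell make-up in the Crym values was not tested, and in whole eyes fewer cells of a type and less RNA per cell cannot be told apart.

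The remaining marker lists were mixed at 24 h. The 11 lens markers had a median log2 difference of 0.10 with none past the threshold, and the 7 pigment epithelium markers that passed the filter had -0.06. The 10 cone markers summed to 528 FPKM without light, 548 FPKM at 3 h, 526 FPKM at 24 h and 616 FPKM at 7 days. Their median at 24 h was -0.20, with 7 of 10 below 0. Among them Gnb3, a cone transducin subunit, was past the threshold upwards (193 FPKM at 24 h against 79.5 FPKM without light), and Opn1sw, described further on, was past it downwards. The higher Gnb3 value is part of the 24 h sum. The near-equal sums at 24 h and without light therefore hide the lower values of most cone markers. The 9 bipolar cell markers had a median of -0.26, the 11 markers kept for amacrine, horizontal and ganglion cells -0.13, and the 7 for ciliary epithelium -0.20. Surface epithelium markers had 0.13 at 24 h and 0.39 at 3 h, where 2 of 8 were past the threshold upwards. Of 6 erythroid markers 3 passed the filter, with a median of -0.64 at 24 h, and Hbb-b2 was listed at 0 in at least 1 sample.

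The wider pathway was read from lists of transporters, cofactors and hormone-responsive genes, 83 genes outside the 6, of which 82 were found and 64 passed the filter. At 3 h 1 of the 64 was higher and none lower, at 24 h 1 was higher and 1 lower, and at 7 days none was past the threshold. Of all genes kept, 0.789%, 1.11% and 0.599% were past it in either direction at those times. The medians of the 64 were 0.06, -0.01 and -0.04, beside 0.02, 0.01 and 0.00 for all genes kept. March6 was the gene not found under its listed name.

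Membrane transporters of the hormone were present in all samples and none of the 8 was past the threshold. Slco1c1, a thyroxine transporter of brain vessels and astrocytes, was at 4.50 FPKM without light, 8.03 FPKM at 3 h, 5.33 FPKM at 24 h and 3.98 FPKM at 7 days. Slc7a5, the light chain of the large neutral amino acid exchanger, was at 23.6, 40.7, 26.1 and 23.0 FPKM in that order. Both genes were highest at 3 h, with log2 differences from the control of 0.72 ± 0.36 for Slco1c1 and 0.76 ± 0.16 for Slc7a5. Slc3a2, the heavy chain that pairs with Slc7a5, was also highest at 3 h, at 74.9 FPKM against 58.3 FPKM without light. As a list the transporters had medians of 0.21 at 3 h, 0.11 at 24 h and 0.02 at 7 days. Ttr, the thyroxine carrier made by the pigment epithelium, was at 710 FPKM without light, 872 FPKM at 3 h, 779 FPKM at 24 h and 1077 FPKM at 7 days. The plasma carriers Serpina7 and Alb were at or near 0.

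Genes for selenoprotein synthesis and deiodinase turnover, needed because deiodinases contain selenocysteine and are removed by ubiquitination, had none of 8 past the threshold. The largest difference among them was that of Usp33, a deubiquitinase that acts on the type 2 enzyme, at 38.4 FPKM at 24 h against 51.7 FPKM without light (log2 difference of -0.42). Receptor cofactors differed little, with medians over 7 corepressors of 0.02 at 3 h, -0.01 at 24 h and 0.03 at 7 days. Over 8 coactivators the medians were 0.12, 0.04 and -0.05. None of the 15 cofactors was past the threshold. Ncor1, the main corepressor of the hormone receptors, was at 22.0 FPKM without light, 24.0 FPKM at 3 h, 20.6 FPKM at 24 h and 20.4 FPKM at 7 days.

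**Figure D4:**
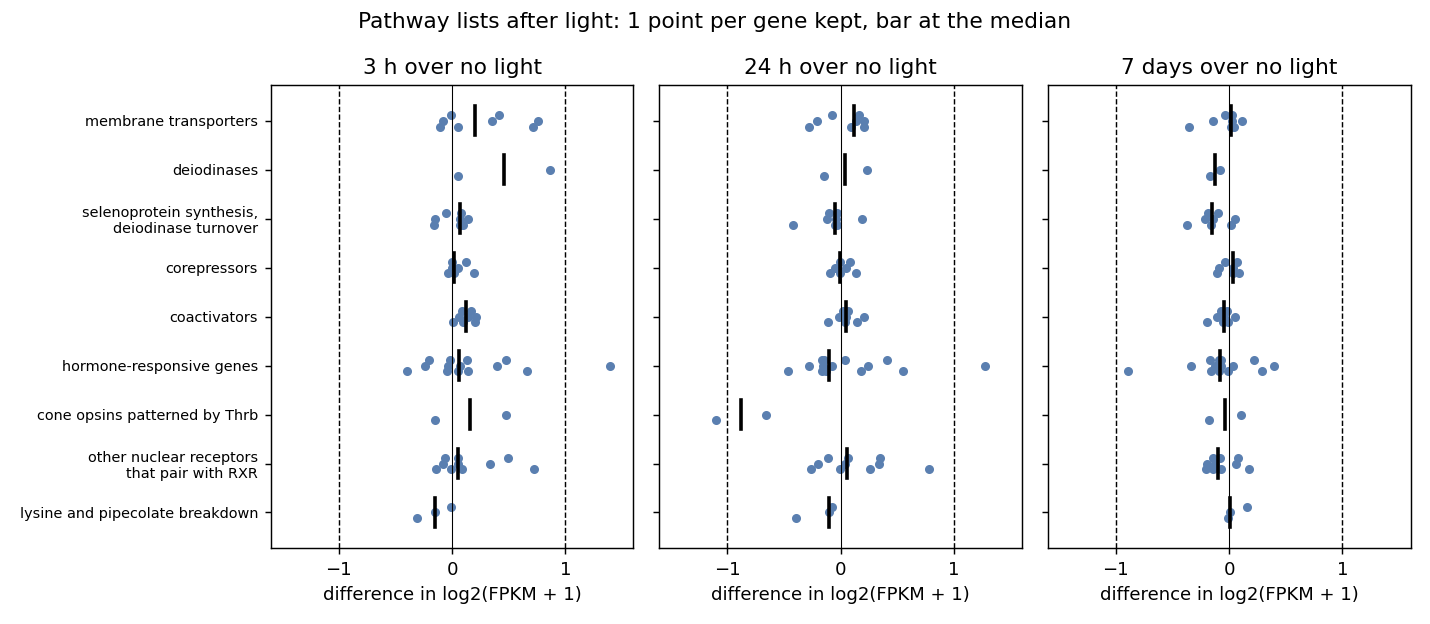
Difference in log2(FPKM + 1) from the control (horizontal axes) at 3 h, 24 h and 7 days for the genes of 9 pathway lists that passed the filter; each point is a gene, black bars are medians and dashed lines mark the threshold. Deiodinases include Dio2 at 0.87 at 3 h, and both cone opsins lie to the left at 24 h, Opn1sw at -1.10 and Opn1mw at -0.66.

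Genes known to respond to thyroid hormone in liver, brain or muscle showed no common direction. Of 15 listed, 14 passed the filter, and their medians were 0.06 at 3 h, -0.10 at 24 h and -0.08 at 7 days. Klf9, a transcription factor induced by the hormone in brain, was at 33.3 FPKM without light, 53.2 FPKM at 3 h, 39.6 FPKM at 24 h and 33.0 FPKM at 7 days. Its log2 difference was 0.66 ± 0.13 at 3 h. Thrsp, a lipogenic gene of liver, was at 11.7, 16.7, 15.9 and 13.8 FPKM in that order. Hr, a corepressor induced by the hormone in brain, was at 15.6, 15.1, 13.9 and 14.8 FPKM. Klf9 and Thrsp were thus highest at 3 h, while Hr differed little.

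Past the threshold in this list were Pck1 at 3 h and Bcl3 at 24 h. Pck1, a gluconeogenic enzyme, was at 2.65 FPKM at 3 h against 0.390 FPKM without light, on few fragments. Bcl3, a nuclear cofactor of NF-kappaB, was at 6.13 FPKM at 24 h against 1.94 FPKM without light, and at 2.87 FPKM at 7 days. Both had a mean under 5 FPKM. Mbp, myelin basic protein, was lowest at 7 days, at 33.3 FPKM against 62.7 FPKM without light (log2 difference of -0.89).

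The cone opsins that Thrb and Rxrg pattern were both lower at 24 h. Opn1sw, the short-wavelength opsin, was at 130 FPKM without light, 117 FPKM at 3 h, 60.2 FPKM at 24 h and 115 FPKM at 7 days. Opn1mw, the middle-wavelength opsin, was at 34.6 FPKM without light, 48.4 FPKM at 3 h, 21.6 FPKM at 24 h and 37.2 FPKM at 7 days. At 24 h Opn1sw passed the threshold downwards (-1.10), where 0.359% of all genes did, and Opn1mw had -0.66. The ratio of Opn1sw to Opn1mw was 3.77 without light, 2.42 at 3 h, 2.79 at 24 h and 3.09 at 7 days. Lower values at 24 h were not particular to the opsins: 7 of the 10 cone markers, which include both opsins, and 11 of the 12 rod markers lay below 0. In the same samples Thrb was highest at 3 h and Rxrg highest at 7 days. The Rxrg difference from the control at 7 days, 0.19 ± 0.32, was smaller than its counting interval. A link between receptor and opsin levels was not tested.

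Among 14 other nuclear receptors that pair with retinoid X receptors, 10 passed the filter and none was past the threshold. Nr4a1, an immediate early receptor, had the largest differences, at 11.9 FPKM at 3 h and 12.4 FPKM at 24 h against 6.83 FPKM without light. Ppara, a regulator of fatty acid oxidation, was at 5.49 FPKM at 3 h against 3.60 FPKM without light. The retinoic acid receptor genes Rara, Rarb and Rarg lay between 8.35 and 24.0 FPKM in the samples. Of 4 genes of lysine and pipecolate breakdown, the pathway in which ketimine reductase activity takes part, 3 passed the filter and none was past the threshold. Their median was -0.10 at 24 h, when Crym was highest.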

How the data were processed

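One table of FPKM values was deposited by the authors, with 1 column for each of the 4 conditions. The authors made them with TopHat2 (version given as 2) and Cuffdiff 2.2.1 on mm9 after bcl2fastq 1.8.3, per the submitters' processing notes; the series design adds Cufflinks. The sources used here give neither the annotation, nor the scaling within Cuffdiff, nor whether a column is a pooled library or a mean. Differences were computed as log2(FPKM + 1) after light minus that of the control, which understates the change of low genes; ratios are of plain FPKM. Genes with a mean of at least 1 FPKM (14194) were kept and 1 log2 unit was the threshold. Gene classes came from RefSeq on GRCm38, where 22324 of 22558 names matched. The named genes were the 6 members, genes of the lists and the 8 nearest to Crym. Members and lists were chosen with earlier results of these data known. The results were recomputed without a filter, with a mean of at least 5 FPKM, with a pseudocount of 0.1, with 2 rescalings and for protein-coding genes alone. Python 3.11.15, pandas 2.3.3 and NumPy 2.4.6 were used.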

Additional observations from a re-analysis of the deposited data

Results flagged for a closer look

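Crym moved in opposite directions against the same control at different times, by more than the approximate counting interval each time. The log2 difference was -0.44 at 3 h, 2.64 at 24 h and 0.88 at 7 days. The difference between the times was not tested, since each is 1 sample, and the 7-day sample also differed in sex.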

How the results depend on the processing

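Under the 6 alternatives, all 180 differences of the 6 genes over the 5 comparisons kept their sign and their side of the threshold, and none moved by more than the counting interval. Dropping the filter, asking for a mean of at least 5 FPKM and taking protein-coding genes alone change only which genes are kept. Under these the differences could not move, so only the pseudocount of 0.1 and the 2 rescalings put them to a check. The 24 h difference of Crym lay between 2.59 and 2.67, and the 3 h difference of Dio2 between 0.83 and 0.98. Counts over all genes moved more. With a pseudocount of 0.1, 54 genes were lower at 3 h in place of 34, and 92 at 24 h in place of 51, as small values then weigh more. With a mean of at least 5 FPKM, 38 were higher at 7 days in place of 58. Among protein-coding genes alone, 37 were higher and 15 lower at 3 h in place of 78 and 34, 60 and 29 at 24 h in place of 106 and 51, and 24 and 7 at 7 days in place of 58 and 27. Of the pathway genes outside the 6, Pck1 and Bcl3 drop out with a mean of at least 5 FPKM, and 2 in place of 1 were higher at 24 h with a pseudocount of 0.1. Of the 8 genes nearest to Crym, 7 were shared with a pseudocount of 0.1, where Glycam1 was nearest, and 8 under both rescalings. No paired analysis was possible because each condition has 1 value. Depth limits genes with low values, Pck1 and Dio1 among them.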

Other observations

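Genes of the thyroid gland and its pituitary axis were mostly near 0. Of 12 listed, 2 passed the filter. Tshr, the thyrotropin receptor, was at 4.62 FPKM without light, 5.98 FPKM at 3 h, 2.84 FPKM at 24 h and 4.68 FPKM at 7 days. Slc5a5, the sodium iodide symporter, was at 2.09, 1.82, 1.84 and 2.08 FPKM in that order. Tg, which encodes thyroglobulin, was at 0.0567 FPKM or below in the samples, and Tshb and Trh were listed at 0 in at least 1 sample.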
